A study of Homo sapiens with 4 samples.

Results

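The genes described here are the human histone genes that lie in clusters and are mostly copied into mRNA as DNA is replicated: the linker histone genes H1-1 to H1-6 and the numbered H2AC, H2BC, H3C and H4C genes of the core histones, with H3-4 and the genes also known as H2AW and H2BU1 (H2AC25 and H2BC26 in the annotation). They were chosen by symbol among the protein-coding genes of GENCODE release 44 on hg19, which gave 68 of 20090 genes. Of these, 52 lay in the chromosome 6 cluster and 14 on chromosome 1, while H4C16 on chromosome 12 and H2BC12L on chromosome 21 stood alone. By class there were 6 H1, 17 H2A, 17 H2B, 14 H3 and 14 H4 genes, and the transcript used for each, the canonical one where 1 was tagged, had 1 exon. A further 3 numbered genes of the chromosome 6 cluster in a RefSeq name table were not matched to the annotation and are not analysed here, so counts over that cluster leave them out.

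Core histones form the spool around which DNA is wrapped: H3 and H4 make its centre, H2A-H2B dimers flank it, and H1 binds the DNA where it enters and leaves. The clustered genes are small, lack introns and are transcribed mainly in S phase, when cells need new histones, under the transcription coactivator NPAT. SSRP1 is a subunit of FACT, a histone chaperone that binds H2A-H2B dimers and helps RNA polymerase pass through nucleosomes, and H3K27ac is an acetylation of histone H3 found at active promoters and enhancers.

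The data came from SK-N-MC, an established Ewing sarcoma line that carries the EWS-FLI1 fusion, grown in medium with serum, with no treatment named. The 4 libraries were chromatin immunoprecipitations for FLI1 (with an antibody to FLI1, which in this line can read the fusion), SSRP1 and H3K27ac, and an input. There was 1 library per target, so no difference here has a replicate check and no p-value was computed. The 3 peak lists held 36305 FLI1, 19855 SSRP1 and 37195 H3K27ac peaks on chromosomes 1 to 22 and X, as positions with no height and no read depth. The line's label was checked on markers: H3K27ac lay at a TSS of 7 of 7 Ewing sarcoma genes and of 0 of 9 genes of other cell types. Over all protein-coding genes the share was 57.9%. PECAM1, also listed for other cell types, was not found in the annotation used. A gene carried a mark where a peak met the 2.5 kb on either side of a transcription start site (TSS), and "over the coding sequence" means that a peak met the coding bases themselves. Shares carry 95% Clopper-Pearson intervals, which cover counting error only and treat genes as independent, although close genes share peaks.

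Most clustered histone genes were acetylated. More of them had SSRP1 at a TSS than lacked it, but not without a chromosome 1 block of 11 genes (27 of 57, 47.4%). H3K27ac was at 53 of the 68 genes (77.9%, interval 66.2 to 87.1), beside 57.9% of all protein-coding genes. SSRP1 was at 38 genes (55.9%, 43.3 to 67.9), beside 35.8%. FLI1 was at 17 genes (25%, 15.3 to 37), beside 29.0% of all genes. All 3 were at 15 genes (22.1%, 12.9 to 33.8), beside 17.3%. The last 2 counts depended on narrow peaks: with peaks at or above their list's median width, FLI1 was at 4 histone genes (5.88%, 1.63 to 14.4), beside 20.1% of all genes, and all 3 were at 4. For all 3 at that width no share of all genes was computed. Without the 11 genes of that chromosome 1 block, which holds near-identical copies, all 3 were at 8 of 57 (14.0%), below the share of all genes. The 38 genes with SSRP1 all had H3K27ac, and none of the 15 genes without H3K27ac had SSRP1. Among the 53 acetylated histone genes the SSRP1 share was thus 71.7% (57.7 to 83.2), against 54.7% of all acetylated genes. Without that block SSRP1 was at 27 of 42 acetylated histone genes. No interval was computed for that count, so it does not show an excess over the 54.7%. FLI1 was at 15 of the same 53 (28.3%, 16.8 to 42.3), against 42.1%, and at 15 of the 38 genes with SSRP1, against 52.1% of all genes with SSRP1. The remaining combinations were SSRP1 with H3K27ac at 23 genes, H3K27ac alone at 15, FLI1 alone at 2 and no peak at 13, beside 34.7% of all genes with no peak.

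**Figure D1:**
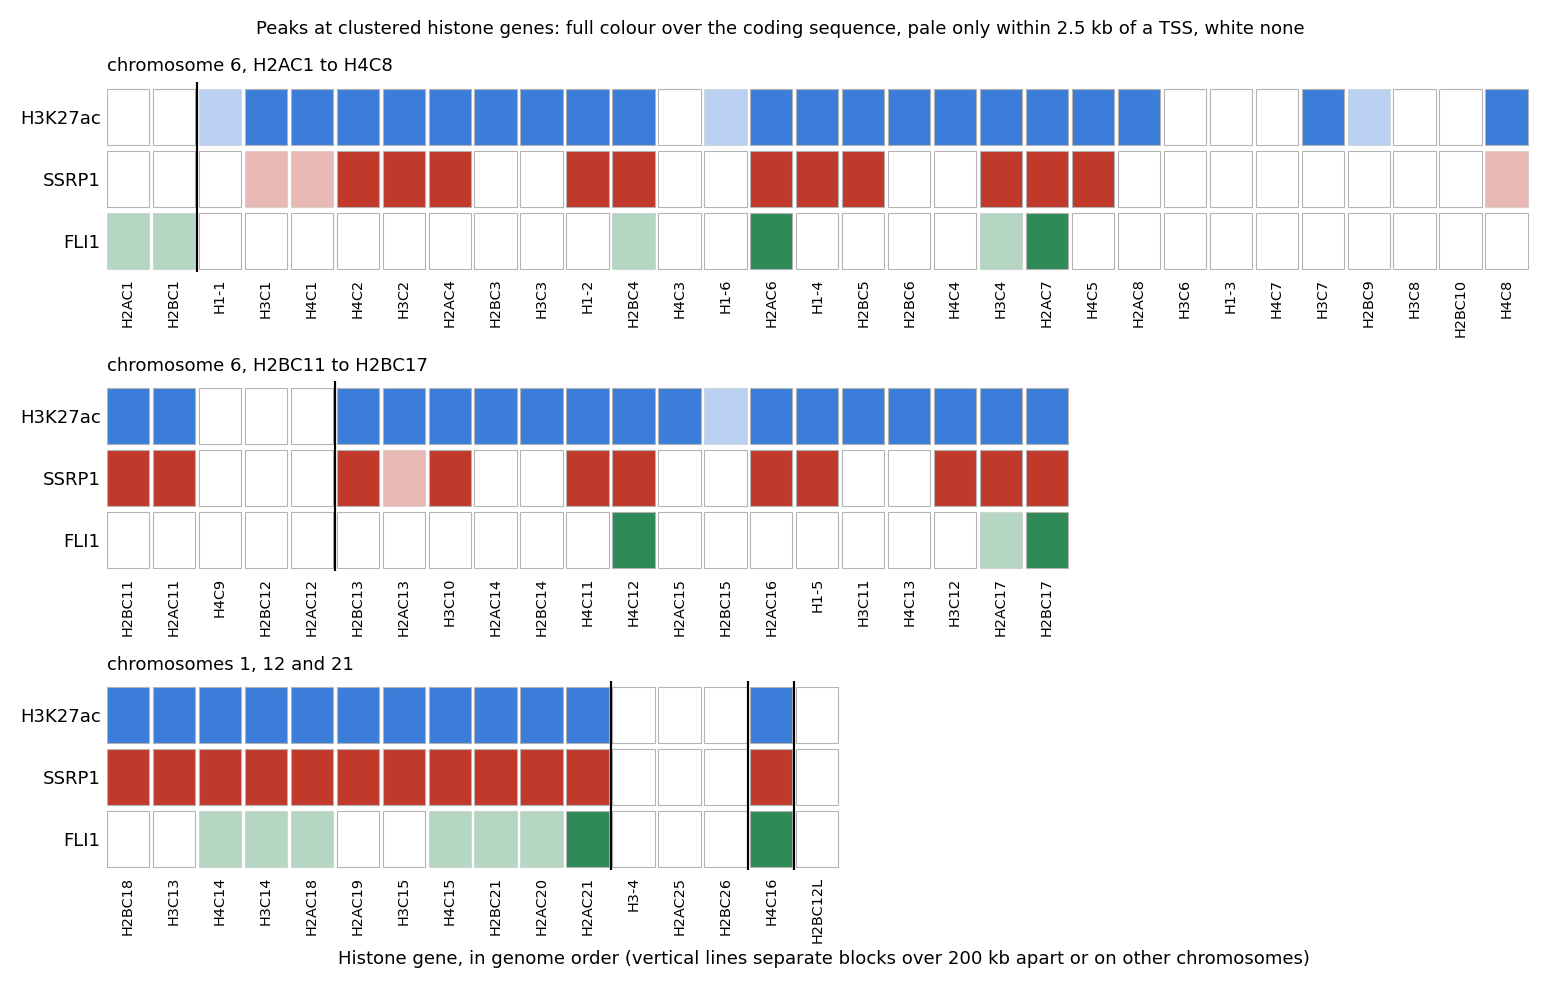
Peaks at each of the 68 clustered histone genes, in genome order along the horizontal axis, with a row of squares for H3K27ac, SSRP1 and FLI1. Full colour marks a peak over the coding sequence, pale colour a peak only within 2.5 kb of a TSS, and white no peak; H3K27ac runs through 53 genes, SSRP1 through 38 of these, and FLI1 is at 17.

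The 15 genes with all 3 were H2AC6, H2AC7, H2AC17, H2AC18, H2AC20 and H2AC21, H2BC4, H2BC17 and H2BC21, H3C4 and H3C14, and H4C12, H4C14, H4C15 and H4C16. The 23 with SSRP1 and H3K27ac but no FLI1 were H1-2, H1-4 and H1-5, H2AC4, H2AC11, H2AC13, H2AC16, H2AC19, H2BC5, H2BC11, H2BC13, H2BC18, H3C1, H3C2, H3C10, H3C12, H3C13, H3C15, H4C1, H4C2, H4C5, H4C8 and H4C11. The 15 with H3K27ac alone lay on chromosome 6: H1-1 and H1-6, H2AC8, H2AC14 and H2AC15, H2BC3, H2BC6, H2BC9, H2BC14 and H2BC15, H3C3, H3C7 and H3C11, and H4C4 and H4C13.

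The classes were counted by their place in the nucleosome. SSRP1 was at 11 of 17 H2A genes, 7 of 17 H2B genes, 8 of 14 H3 genes, 9 of 14 H4 genes and 3 of 6 H1 genes. H3K27ac was at 14 H2A, 12 H2B, 11 H3, 11 H4 and 5 H1 genes. FLI1 was at 7 H2A, 4 H2B, 2 H3, 4 H4 and 0 H1 genes. With 6 to 17 genes a class, the intervals of these shares overlapped: for SSRP1 they ran from 11.8 to 88.2% in H1 and from 38.3 to 85.8% in H2A. The 3 linker genes with SSRP1 were H1-2, H1-4 and H1-5. H1-1 had an acetylated peak of 300 bp within its window, H1-3 had no peak, and H1-6, the testis linker histone, had an acetylated peak of 361 bp.

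Within the clusters the genes fell into blocks, split where neighbours were over 200 kb apart. The 11 genes of the block at chr1:149754245-149859515, from H2BC18 to H2AC21, all had H3K27ac and SSRP1, and 7 also had FLI1. H3K27ac peaks covered 53.6% of this block and SSRP1 peaks 13.3%, where over the whole of chromosome 1 they covered 1.55% and 0.466%. The block at chr6:27775257-27861669, from H2BC13 to H2BC17, had H3K27ac at 16 of 16 genes, SSRP1 at 10 and FLI1 at 3. H3K27ac covered 47.9% of its bases and SSRP1 8.62%, where over the whole of chromosome 6 they covered 1.31% and 0.304%. Both blocks run from a first to a last gene, while whole chromosomes include stretches without genes. Other gene-dense stretches were not measured, so these contrasts are not particular to histone genes. The largest block, chr6:26017260-26285866 from H1-1 to H4C8, had H3K27ac at 23 of 29 genes, SSRP1 at 14 and FLI1 at 4. Its end from H3C6 onwards, singled out after the values were seen, was mostly bare: of the 8 genes H3C6, H1-3, H4C7, H3C7, H2BC9, H3C8, H2BC10 and H4C8, only H4C8 had SSRP1 and 5 had no peak. The small block from H2BC11 to H2AC12 had SSRP1 and H3K27ac at the H2BC11 and H2AC11 pair and no peak at H4C9, H2BC12 and H2AC12. Over the whole chromosome 6 cluster SSRP1 was at 26 of 52 genes (50.0%, 35.8 to 64.2), and over chromosome 1 at 11 of 14 (78.6%, 49.2 to 95.3).

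The chromosome 1 counts rest on sequence that short reads cannot fully resolve. In that block a median of 20.5% of the 50-base words within 1 kb of the TSS occurred once in the genome (range 0.0 to 94.2). H4C14, H4C15, H3C14 and H3C15 had none that did, while H2BC21, H2AC20 and H2AC21 had 85.6, 85.2 and 94.2%. In the chromosome 6 cluster the median was 98.5% (76.4 to 100). Reads from near-identical copies can be assigned to either, so peaks at the chromosome 1 genes with little unique sequence may belong to a copy. Without the 11 genes, an alternative chosen after seeing the data, SSRP1 was at 27 of 57 (47.4%, 34.0 to 61), an interval that holds the 35.8% of all genes. H3K27ac was at 42 (73.7%, 60.3 to 84.5, all genes 57.9%), FLI1 at 10 (17.5%, 8.75 to 29.9, all genes 29.0%) and all 3 at 8 (14.0%, 6.26 to 25.8, all genes 17.3%). Among the 47 genes with at least 90% unique sequence SSRP1 was at 24 (51.1%, 36.1 to 65.9), H3K27ac at 37 (78.7%), FLI1 at 10 (21.3%) and all 3 at 8 (17%).

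**Figure D2:**
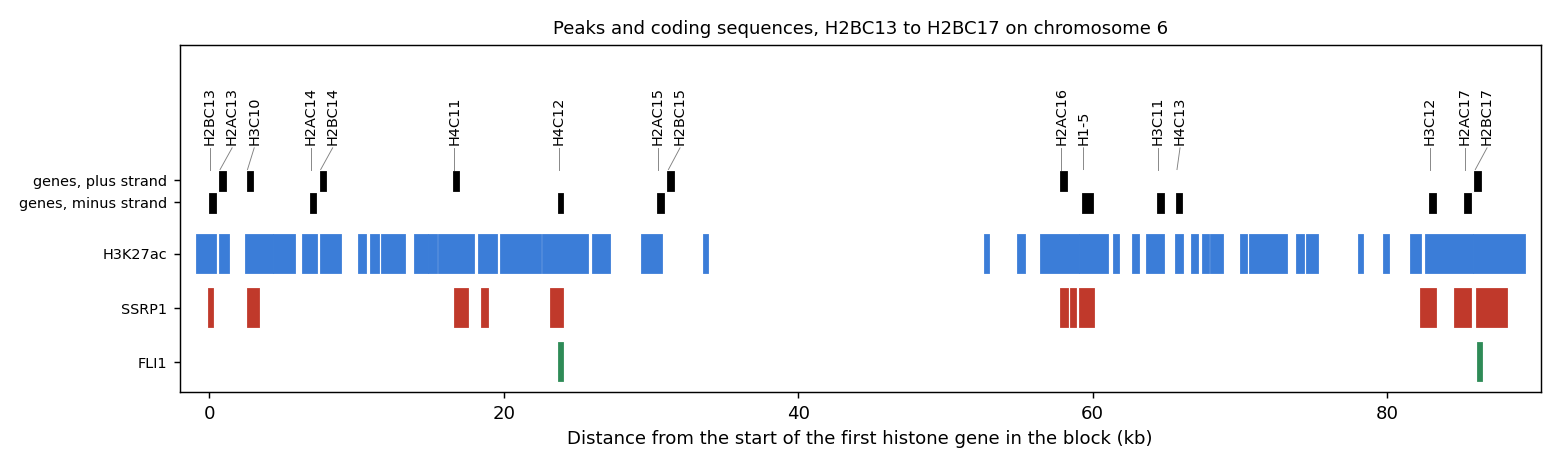
Coding sequences (black, by strand) and peaks of the 3 lists along the chromosome 6 block from H2BC13 to H2BC17, against distance in kb from the first gene of the block. H3K27ac bars run past most of the genes, SSRP1 bars sit on single genes or close groups, and the 2 FLI1 bars fall on H4C12 and H2BC17.

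SSRP1 lay mostly over the histone genes themselves. Peaks met the gene in 35 of 68 cases (51.5%, 39.0 to 63.8), beside 40.4% of all genes, whose bodies are mostly far longer. Without the chromosome 1 block it was 24 of 57 (42.1%, 29.1 to 55.9), so the count gave no clear excess over all genes. With at least 50% of the gene covered it was 25 of 68 (36.8%), a share not computed for all genes. H3K27ac met 50 genes, beside 61.4%. SSRP1 peaks met the coding sequence of 34 genes, covering at least 50% of it in each and all of it in 18. Relative to the TSS, the upstream edge of these 34 peaks had a median of 27.5 bp, and 28 of the edges were within 100 bp of the TSS. Each of the 34 ran past the end of the coding sequence, by a median of 620.5 bp (24 to 1747), and the median peak width was 989 bp. A histone gene with SSRP1 was therefore typically covered from near its start to well beyond its stop codon.

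Single genes show this shape. At H1-4, which encodes linker histone H1.4, the peak ran from -91 to 1450 bp. At H1-2 it ran from 40 to 1358 bp and at H1-5 from 25 to 997 bp. Among H2A genes, the peak ran from 6 to 1032 bp at H2AC7, from 17 to 1115 bp at H2AC17 and from 87 to 725 bp at H2AC6. These cover the coding sequence of H2AC7 and H2AC17 whole and 93.3% of that of H2AC6. Among H2B genes the peaks began further in, with a median of 113 bp: from 1 to 900 bp at H2BC4, from 158 to 2162 bp at H2BC17 and from 188 to 496 bp at H2BC13. The H2BC13 peak, 309 bp wide, was the narrowest over any member's coding sequence. Among H3 genes the widest were at H3C14 (32 to 2105 bp), H3C4 (25 to 1816 bp) and H3C15 (7 to 1640 bp). H4 peaks had widths from 540 bp at H4C16 to 1020 bp at H4C14 and upstream edges from -84 bp to 66 bp. The 4 genes with SSRP1 in the window but off the coding sequence were H3C1 and H4C1, which shared a peak of 296 bp between them, H4C8, whose 571 bp peak began at 398 bp, and H2AC13. At H2AC18 no transcript carried the canonical tag, so distances were taken from its first TSS, and its peak ran from -558 to 1447 bp.

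**Figure D3:**
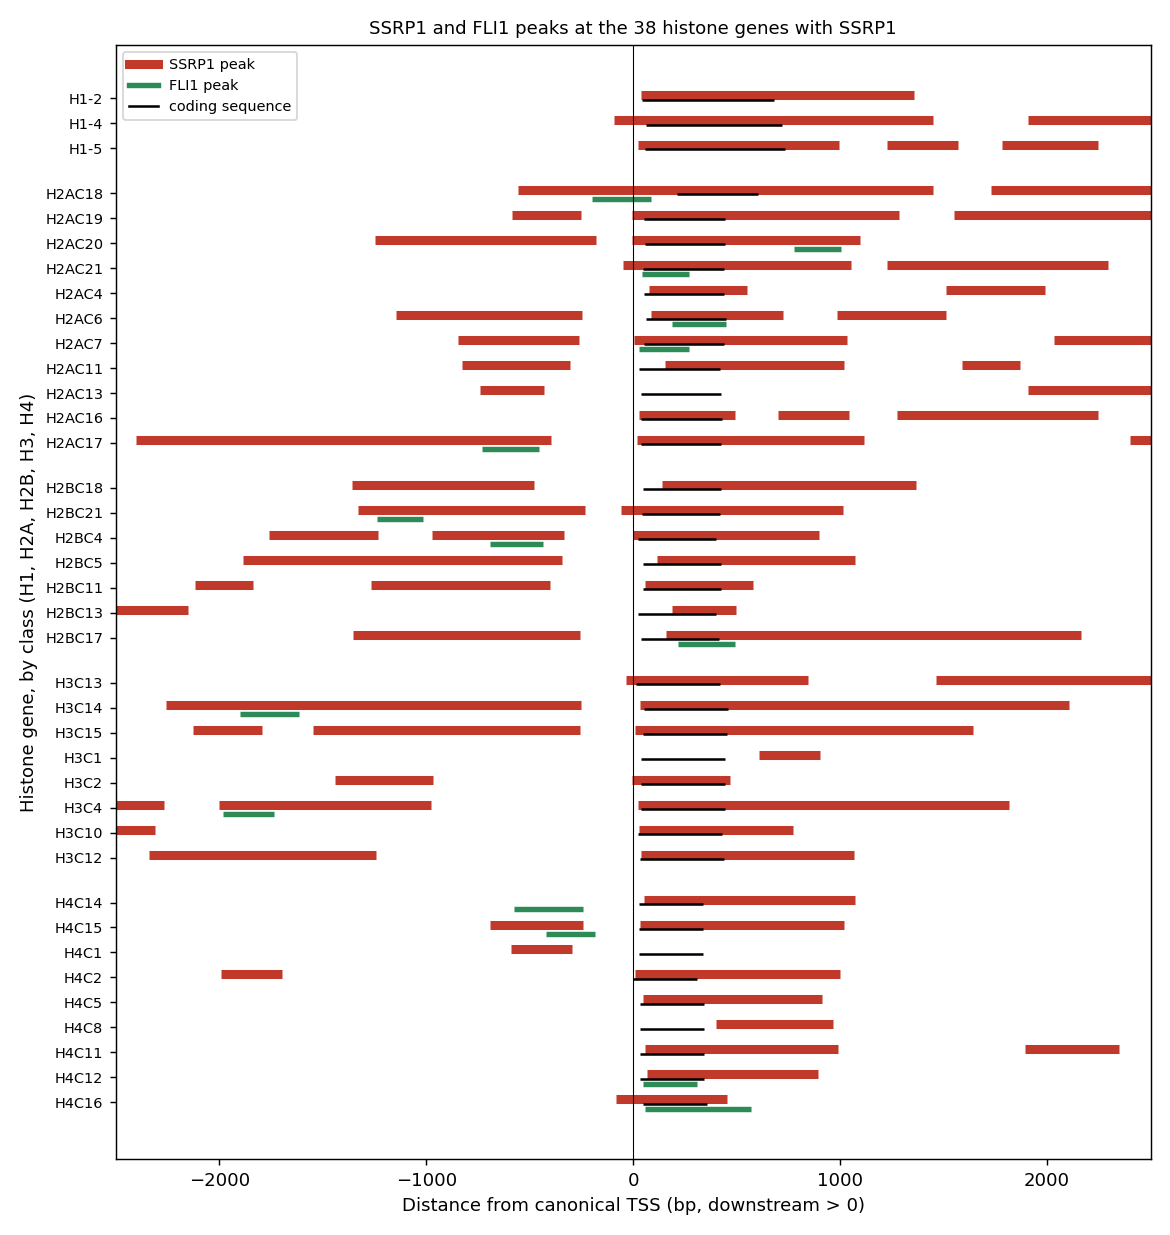
Extents of SSRP1 peaks (red) and FLI1 peaks (green) around the canonical TSS, in bp with downstream to the right, for the 38 histone genes with SSRP1, grouped by class; black lines are coding sequences. Most red bars begin near 0 and end beyond the coding sequence, and at 34 genes a red bar meets the black line.

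The same comparison was made by position, in bins of 50 bp; this and the next comparisons by gene length and by H3K27ac width were chosen after seeing the data. In the bin centred 275 bp downstream of the TSS, SSRP1 covered 34 of the 38 histone genes that had it (89.5%, 75.2 to 97.1), against 54.9% of the genes with SSRP1 genome-wide. The bin centred at -75 bp was covered in 3 of 38 (7.89%, 1.66 to 21.4), against 34.2%. The histone genes were thus bare of SSRP1 just before the TSS and covered just after it. In genes of unique sequence the counts were 21 of 24 and 2 of 24. Other genes of at most 2 kb with SSRP1, 152 in number, had it in 40.8% at 275 bp and 27.6% at -75 bp, with a median width of the nearest peak of 505 bp, where the histone genes had 966 bp. Of the replication-independent histone genes, such as H3-3A and H2AZ1, 9 had SSRP1: 8 at 275 bp and 4 at -75 bp, with a median width of 1044 bp. H3K27ac also dipped at -75 bp, where it covered 23 of the 53 acetylated histone genes (43.4%, 29.8 to 57.7) against 75.3% of all acetylated genes, and 49 of 53 (92.5%) against 91.3% at 275 bp. Chromatin was digested with micrococcal nuclease, which cuts DNA that nucleosomes do not protect. Its part in these dips was not tested.

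**Figure D4:**
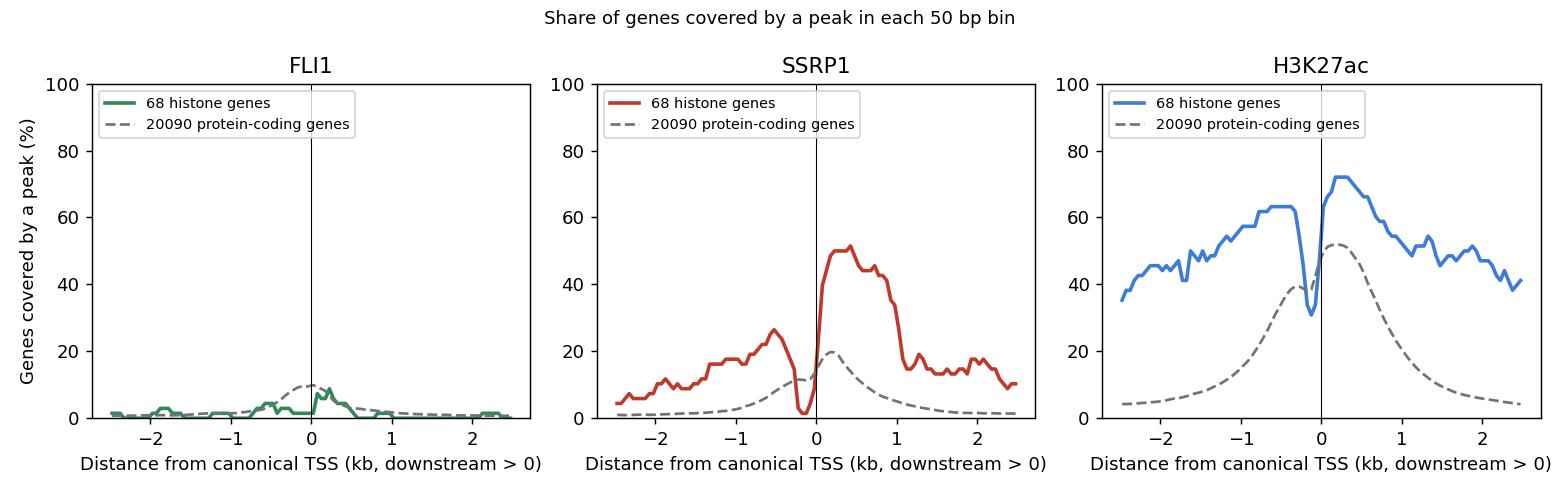
Share of genes, in percent, covered by a peak in each 50 bp bin from 2.5 kb upstream to 2.5 kb downstream of the canonical TSS, for FLI1, SSRP1 and H3K27ac; coloured lines are the 68 histone genes and dashed lines all 20090 protein-coding genes. The SSRP1 line for histone genes falls close to 0 just before the TSS and reaches 51.5% after it, where all genes reach 19.8%.

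Many H2A and H2B genes are arranged head to head, and the sequence between their starts is the promoter of both. There were 10 such pairs with starts at most 500 bp apart, separated by 193 to 250 bp. SSRP1 lay over the coding sequences of both genes in 4 pairs (H2BC21 with H2AC20, H2BC4 with H2AC6, H2BC11 with H2AC11, H2AC17 with H2BC17), over H2BC13 alone in 1, and over neither in 5. In 4 of these 5 pairs with SSRP1 the gap between the starts held no base of an SSRP1 peak, and at H2BC21 with H2AC20 the peaks took 63 of its 235 bases. Of all genes with SSRP1, 34.2% had it in the bin centred at -75 bp. The 5 pairs are few, and head-to-head pairs of other genes were not counted. FLI1 peaks touched none of the 10 gaps, and lay over a coding sequence in only 2 of the pairs. Over all genes FLI1 covered 9.46% in the bin centred at -125 bp. With 10 gaps, a count of 0 does not stand apart from that share. H3K27ac lay over both genes in 6 pairs and over 1 gene in 1, and covered a median of 15.6% of the gap in those 7, with 61.9% at H2AC17 with H2BC17.

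The gaps are shown because they are the stretch left between SSRP1 peaks, and because pairs with and without peaks can be read side by side. Each is the plus strand of hg19, 5' to 3', with capitals for the octamer ATTTGCAT, CCAAT and TATAAA, searched on both strands. They lie at chr1:149858233-149858467, chr6:26124155-26124399, chr6:27860964-27861202, chr6:27114635-27114884 and chr6:25726791-25727004 in the order given. The first 3 pairs had SSRP1 over both genes, the fourth, H2BC12 with H2AC12, had no peak, and the fifth, H2AC1 with H2BC1, is the testis-expressed pair, with FLI1 in its windows and no other peak.
H2BC21 and H2AC20: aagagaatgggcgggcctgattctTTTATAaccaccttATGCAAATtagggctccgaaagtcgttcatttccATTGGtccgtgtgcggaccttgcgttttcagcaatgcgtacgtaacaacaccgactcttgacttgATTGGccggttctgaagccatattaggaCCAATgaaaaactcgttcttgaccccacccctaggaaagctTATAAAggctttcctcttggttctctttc
H2BC4 and H2AC6: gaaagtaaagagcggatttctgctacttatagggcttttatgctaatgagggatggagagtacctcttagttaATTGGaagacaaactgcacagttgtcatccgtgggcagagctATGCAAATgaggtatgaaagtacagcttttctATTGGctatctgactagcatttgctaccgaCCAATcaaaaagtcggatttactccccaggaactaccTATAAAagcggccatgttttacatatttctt
H2AC17 and H2BC17: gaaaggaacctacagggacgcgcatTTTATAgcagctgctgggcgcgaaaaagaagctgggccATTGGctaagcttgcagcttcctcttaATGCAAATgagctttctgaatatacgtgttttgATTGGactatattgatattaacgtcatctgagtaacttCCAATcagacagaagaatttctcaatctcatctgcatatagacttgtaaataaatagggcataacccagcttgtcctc
H2BC12 and H2AC12: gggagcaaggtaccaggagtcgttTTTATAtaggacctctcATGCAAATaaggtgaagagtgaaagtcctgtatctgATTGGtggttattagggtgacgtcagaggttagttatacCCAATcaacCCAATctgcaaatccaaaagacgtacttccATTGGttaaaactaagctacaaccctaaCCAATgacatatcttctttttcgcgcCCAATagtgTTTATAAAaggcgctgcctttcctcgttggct
H2AC1 and H2BC1: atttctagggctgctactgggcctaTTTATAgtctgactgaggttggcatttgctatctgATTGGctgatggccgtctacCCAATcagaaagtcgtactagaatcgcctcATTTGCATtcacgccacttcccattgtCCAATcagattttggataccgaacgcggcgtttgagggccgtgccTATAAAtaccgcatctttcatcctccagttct
All 5 held 1 octamer, at least 3 CCAAT boxes and at least 1 TATA box, with or without SSRP1 over the genes. Of the 10 gaps, 7 held the octamer, 10 a CCAAT and 8 a TATA box. None held CCGGAA, a site that FLI1 and its relatives recognise, called the ETS core here. Single GGAA sites without the leading CC, which these factors can also bind, were not counted.

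Over all 68 promoters (250 bases before to 50 after the TSS), the octamer was in 25 (36.8%), against 1.58% of all protein-coding promoters. It was in 12 of 17 H2A and 13 of 17 H2B promoters and in 0 of the H1, H3 and H4 promoters; it is the site of the factor POU2F1. CCAAT was in 56 (82.4%, all promoters 35.9%), with 14 of 14 H3 and 6 of 6 H1 but 4 of 14 H4 promoters. TATAAA was in 46 (67.6%, all promoters 9.82%), and the ETS core in 10 (14.7%, all promoters 22.6%). Genes with and without SSRP1 shared these letters: the octamer was in 13 of 38 and 12 of 30, CCAAT in 29 and 27, and TATAAA in 28 and 18. Of the 13 genes with no peak, 4 had the octamer, 11 CCAAT and 6 TATAAA. For comparison of single-gene promoters, the 200 bases before the TSS are given on the gene's strand for H4C12 (chr6:27799339-27799538, minus), which had all 3 marks, H4C3 (chr6:26103961-26104160, plus), which had no peak, and H1-4 (chr6:26156357-26156556, plus), with capitals as before.
H4C12: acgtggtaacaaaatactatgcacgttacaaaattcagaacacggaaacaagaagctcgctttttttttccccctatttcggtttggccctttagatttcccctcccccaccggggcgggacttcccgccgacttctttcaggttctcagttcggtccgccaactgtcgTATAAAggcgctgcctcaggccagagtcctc
H4C3: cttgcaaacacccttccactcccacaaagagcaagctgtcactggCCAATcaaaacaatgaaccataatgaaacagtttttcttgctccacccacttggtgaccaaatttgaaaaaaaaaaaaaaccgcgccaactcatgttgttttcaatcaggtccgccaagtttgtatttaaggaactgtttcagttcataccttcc
H1-4: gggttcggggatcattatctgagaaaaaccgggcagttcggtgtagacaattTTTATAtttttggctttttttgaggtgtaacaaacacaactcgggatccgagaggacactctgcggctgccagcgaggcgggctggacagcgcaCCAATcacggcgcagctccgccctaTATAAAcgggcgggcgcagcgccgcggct
H4C12 held a TATA box and no CCAAT, H4C3 a CCAAT and no TATA box, and H1-4 both.

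FLI1 had 10 distinct peaks at the 17 histone genes, with a median width of 262 bp (227 to 509), against 330 bp for FLI1 peaks at any TSS. The narrowest width in the FLI1 list was 227 bp, shared by 18.4% of its peaks, and 2 of the 10 had it. Of the 10, 8 met an SSRP1 peak and 9 an H3K27ac peak, against 46.8% and 71.4% at any TSS. With only 10 peaks, 4 of them in the chromosome 1 block, and no interval computed, these counts do not show a difference from those shares. The peak met the coding sequence of 6 genes, H2AC21, H2AC6, H2AC7, H4C12, H2BC17 and H4C16, with 52.9 to 96.1% of it covered. FLI1 met the gene in 8 of 68 cases (11.8%), beside 44.4% of all genes, whose bodies are mostly far longer. That comparison therefore does not show fewer FLI1 peaks at histone genes. The peak ran from 27 bp at H2AC7, from 45 bp at H4C12, from 189 bp at H2AC6 and from 216 bp at H2BC17. In these 4 genes the FLI1 peak began inside the gene and overlapped an SSRP1 peak. Upstream peaks were at H4C14 (-578 to -244 bp) and H4C15 (-423 to -184 bp), the near-identical H4 copies of chromosome 1. A peak at H2AC18 ran from -200 to 84 bp.

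The extents at the other genes with all 3 marks, in bp from the TSS, complete this picture. At H2AC21 FLI1 ran from 43 to 269, SSRP1 from -48 to 1052 and H3K27ac from -1255 to 1115. Its neighbours H2AC20 and H2BC21 shared that FLI1 peak, at 778 to 1004 from H2AC20 and -1240 to -1014 from H2BC21. Their nearest SSRP1 peaks ran from -5 to 1095 and from -58 to 1014, and their H3K27ac peaks from -68 to 2302 and from -20 to 1928. The FLI1 peak thus lay beyond H2AC20 and over H2AC21 only. FLI1 ran from -694 to -435 at H2BC4, from -730 to -456 at H2AC17, from -1980 to -1738 at H3C4 and from -1898 to -1614 at H3C14, each time nearer to a partner gene. It ended at 269 at H2AC7, 308 at H4C12, 448 at H2AC6, 490 at H2BC17 and, from 59, at 567 at H4C16. SSRP1 ran from 53 to 1072 at H4C14, 32 to 1019 at H4C15 and 66 to 893 at H4C12. H3K27ac extended past these on at least 1 side at each of the 15 genes. It ran from -53 to 2760 at H2BC4, 4 to 4081 at H2AC6, -1297 to 1749 at H2AC7, -58 to 3044 at H3C4 and -1665 to 1434 at H4C12. In the last chromosome 6 pair it ran from -88 to 3068 at H2AC17 and -60 to 3388 at H2BC17. At the chromosome 1 copies it ran from -2258 to 2149 at H4C14, -2514 to 1042 at H4C15, -5027 to 2929 at H3C14 and -3329 to 4627 at H2AC18, and at H4C16 from -800 to 1345.

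The ETS core was in 4 of the 10 peaks (FLI1 peaks at any TSS 29.9%): those at H4C14, H4C15, H4C16 and over the TSS of H2AC18, which is also in the window of H3C14. The 6 peaks without it were at H2AC21, H2AC6, H2AC7, H4C12 and H2BC17, over the coding sequence, and at the H2AC1 and H2BC1 pair. The H4C16 peak, which held 3 cores, also lay over the coding sequence. The run of at least 4 GGAA that the fusion binds at microsatellites was in 0 of 10, against 0.877% at any TSS. A core from each of the 4 is shown with its flanks on hg19, the core in capitals, since it is the letters by which these peaks differ from the other 6. They lie at chr1:149803930-149803953 (minus strand), chr1:149832993-149833016 (plus), chr12:14923948-14923971 (minus) and chr1:149814528-149814551 (minus).
H4C14: tgaggacgcCCGGAAggcattgca
H4C15: tgaggacgcCCGGAAggcattgca
H4C16: caagcgccaCCGGAAggtgctgcg
H3C14 and H2AC18: cggggtctaCCGGAAacgactgtg
The H4C14 and H4C15 stretches are the same letters, so the reads at either may come from the other.

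H3K27ac was broad where SSRP1 was present. The widest acetylated peak at the 38 genes with SSRP1 ranged from 1025 bp to 7957 bp with a median of 3073 bp, and at the 15 acetylated genes without SSRP1 from 300 bp to 4284 bp with a median of 679 bp. Of the first, 31 were at least 2000 bp, and of the second only the one at H2BC6 was. That 4284 bp peak lay in the window of another TSS of H2BC6, from -14481 to -10198 bp of the canonical one. The peak over the H2BC6 coding sequence was 336 bp wide. The widest were at H3C14 and H2AC18 (7957 bp, chr1:149809851-149817807), H2AC19 and H3C15 (5712 bp, chr1:149820585-149826296) and H4C2 and H3C2 (5376 bp, chr6:26025195-26030570). The last lay over H4C2 but 1757 bp from the TSS of H3C2, whose own peak over the gene was 876 bp wide. Genes were then set beside all genes of like H3K27ac width. With a widest peak under 1000 bp, SSRP1 was at 0 of 8 histone genes (0.0 to 36.9%) and 35.6% of all genes. From 1000 bp to under 2000 bp it was at 7 of 13 (53.8%) against 53.7%. From 2000 bp to under 3000 bp it was at 11 of 11 (71.5 to 100%) against 73.2%, and from 3000 bp at 20 of 21 (95.2%) against 89.5%. In each of the 4 classes the share of all genes lay inside the histone genes' interval, in the narrowest class near its upper bound. This sorting put H2BC6, by its far peak, in the widest class as the only gene there without SSRP1. By its 336 bp peak it would join the narrowest class, for which no interval was computed. FLI1 was at 0 of 8, 0 of 13, 4 of 11 and 11 of 21 (52.4%) histone genes in these classes, against 28.5, 41.8, 54.1 and 67.6%. In the class from 1000 bp to under 2000 bp the FLI1 interval (0.0 to 24.7%) lay below the share of all genes, and in the other classes it held it. Close genes share peaks: 42 of the 88 distinct H3K27ac peaks and 31 of the 43 distinct SSRP1 peaks at the members were in the windows of 2 or more.

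The 13 genes with no peak were H3-4, H2AC25, H2BC26, H4C3, H3C6, H1-3, H4C7, H3C8, H2BC10, H4C9, H2BC12, H2AC12 and H2BC12L. The nearest H3K27ac peak was 3.016 kb (H4C7) to 44.356 kb (H2BC12L) from their TSS, with a median of 12.089 kb. The nearest SSRP1 peak was 4.37 kb (H4C9) to 51.743 kb (H2BC26) away, and the nearest FLI1 peak 5.599 kb (H2BC26) to 73.665 kb (H2BC10). Their sequence was mostly unique (63.8 to 100% of 50-base words, median 96.5%). Of the 4 members known for expression in testis, SSRP1 was at 0 and H3K27ac at 1: H1-6 had H3K27ac, H2AC1 and H2BC1 shared a FLI1 peak of 227 bp, and H3-4, a testis H3, had no peak. H4C16, the lone H4 gene of chromosome 12, had all 3 marks, with SSRP1 from -84 to 455 bp and FLI1 over 96.1% of its coding sequence.

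Other genes between the members of the chromosome 6 cluster were counted in the same way. Of the 20, SSRP1 was at 4 (20%), FLI1 at 4 (20%) and H3K27ac at 11 (55%), beside 35.8, 29.0 and 57.9% of all protein-coding genes. The same shares of all genes apply to the lists that follow, of 11, 8 and 9 genes, which carry no interval. HMGN4, ZNF184 and ZNF391 had SSRP1, while the phosphate transporter genes SLC17A1 to SLC17A4 and the iron regulator HFE had no peak. Leaving aside 1 gene whose window met a member's, SSRP1 was at 3 of 19. The replication-independent histone genes had H3K27ac in their windows in 11 of 11 cases, with SSRP1 at 9 and FLI1 at 5. H2AJ and MACROH2A2 lacked SSRP1. The H3K27ac peak at H2AJ ran from -4619 to -2474 bp, so it met only the edge of the window. It was 2146 bp wide, as was the peak at H4C16. Of 8 regulators of histone gene transcription, H3K27ac was at 8, SSRP1 at 5 and FLI1 at 4. NPAT, the coactivator of the clusters, had a FLI1 peak from -668 to -429 bp and no SSRP1, and POU2F1 had all 3. Of 9 genes for processing the 3' end of histone mRNA, H3K27ac was at 9, SSRP1 at 6 and FLI1 at 4, and SLBP, the stem-loop binding protein, had SSRP1 from 202 to 687 bp.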

How the data were processed

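Chromatin immunoprecipitation with sequencing was done on SK-N-MC cells for FLI1, SSRP1 and H3K27ac with an input, 1 library each, grouped by sample title. Per the series' design text, chromatin was cut with micrococcal nuclease and sonicated, and the authors placed reads on hg19 by Bowtie2 with its defaults and called peaks over the input with MACS2 at a q-value of 0.05. The submitters' processing notes give MACS2 as 2.2.7.1. Nuclease digestion favours DNA held by nucleosomes, which can lower signal over open promoters. Filters on duplicate or multiply mapped reads are not given in the sources used here. The deposited lists give peak positions in each library, with no strength, so no depth or floor can be given and peak width was used instead. Intervals repeated under several names were counted once (38324, 23078 and 62198 lines for FLI1, SSRP1 and H3K27ac).

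Genes and TSSs of basic transcripts came from GENCODE release 44 on GRCh37. HIST2H2AA3 and HIST1H4B were matched as H2AC18 and H4C2 through a RefSeq name table. Peaks were joined to genes by position, and shares carry 95% Clopper-Pearson intervals. Uniqueness is the share of 50-base words within 1 kb of a TSS found once in the genome. Any member analysed could be named. The rule gave peak extents for members with all 3 marks, the widest peaks or FLI1 over the gene, and distances to the nearest peaks, as ranges, for those with none. Members and lists were chosen with earlier results of these data known. Alternatives were windows of 1 and 5 kb, canonical TSSs, wider peaks, more overlap, unique members and merged loci. The counting functions were tested on simulated data. Python 3.11.15, numpy 2.4.6, pandas 2.3.3 and scipy 1.17.1 were used.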

Additional observations from a re-analysis of the deposited data

How the results depend on the processing

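Of 38 alternative values for the SSRP1, FLI1, H3K27ac and all-3 counts at a TSS, the SSRP1 count over the gene and the 2 SSRP1 position counts, 35 stayed within 1.5 times the main share. With peaks at or above their list's median width, FLI1 was at 4 histone genes (5.88%, all genes 20.1%) and all 3 at 4, and without the first chromosome 1 block all 3 were at 8 of 57. SSRP1 at a TSS ranged from 36 genes with wider peaks (52.9%, all genes 24.4%) to 43 with a window of 5 kb (63.2%, all genes 38.4%). H3K27ac ranged from 47 genes with wider peaks (69.1%, all genes 50.1%) to 56 with a window of 5 kb (82.4%, all genes 59.5%). Counting genes with meeting windows once gave SSRP1 at 21 of 37 loci, with no like count over all genes. The SSRP1 position counts in unique members were 21 of 24 at 275 bp and 2 of 24 at -75 bp. No paired analysis was possible because each target had 1 library. Peak lists without heights or depth do not show how far a gene without a peak was from the caller's threshold.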

Other observations

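The clusters also hold histone pseudogenes, copies that no longer encode a histone. Of 15 in or near the clusters, H3K27ac peaks lay over 7, SSRP1 over 3 and FLI1 over 1. No like share over other pseudogenes was computed. SSRP1 lay over H2BC19P, HIST2H2BC and H1-12P, each within 2.5 kb of the TSS of a coding histone gene, at 130, 289 and 1732 bp. Of the 6 pseudogenes more than 5 kb from the TSS of any coding member, H3C9P had H3K27ac over it, with an SSRP1 peak within 2.5 kb of its start, and 0 had SSRP1 over them. H2BC27P had a FLI1 peak near its start and no other peak, and H2BC2P, H2AC2P, H2AC3P and H2BP5 had no peak. These genes were chosen after seeing the data, and reads shared with coding copies were not separated.

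Among the replication-independent histone genes the SSRP1 peak ran from -85 to 1476 bp at H2AX, from -59 to 1106 bp at H2AZ1, from 79 to 2016 bp at H1-10 and from 45 to 1000 bp at H3-3B. CENPA, the centromeric H3, had a peak from 26 to 477 bp.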
